A study of Mus musculus with 6 samples.

Results

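The enzymes that break down amino acids and pass methyl and other single-carbon groups between methionine, betaine, glycine, serine and folate were compared between the livers of 2 mouse strains. The set was a list of 54 named genes. A gene was read through a probe set that the platform annotation pairs with that gene alone, and where there were several, through the brightest of them in the mean of the 6 arrays, which takes no account of strain. This gave a value for 52 of the 54, out of 18194 genes measured in the same way. Sdsl and Amt were not analysed here.

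The arrays held liver RNA of 3 B6.C3H-6T mice and 3 C57BL/6J mice, 1 mouse per array and none pooled. All were females of 8 weeks fed chow. B6.C3H-6T is a congenic strain that carries DNA of the C3H strain on chromosome 6 in a C57BL/6J background, and the series title describes it as having low serum IGF-1. The limits of the donor segment were not used here. Any difference between the strains is therefore a difference between 2 inbred lines on 3 mice each. The p-values below weigh that difference against the spread between mice of the same strain. In the limma fit that spread is estimated with information from all probe sets.

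Liver is the main site where the carbon skeletons of most amino acids are oxidised. Aminotransferases move the amino group onto glutamate, dedicated pathways then open the tyrosine, tryptophan, histidine and lysine skeletons, and the products enter the citric acid cycle, gluconeogenesis or ketone body synthesis. The methionine cycle makes S-adenosylmethionine, the methyl donor of the cell, and its product homocysteine is either methylated back to methionine or led to cysteine. Several of these enzymes, with Tat and Tdo2 as the textbook cases, are known to be induced by glucocorticoids, glucagon and fasting.

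Levels are given as log2 RMA signal, the scale on which the authors deposited them, and differences are on that scale with the standard error of the limma fit, a positive one meaning a higher signal in B6.C3H-6T livers. Levels of different probe sets cannot be set against each other, so only differences are compared between genes. Array medians lay between 6.08 and 6.11, and correlations between arrays ran from 0.994 to 0.997 over probe sets (a description, since probe sets are no replicates). The tissue label was checked on 8 hepatocyte markers, of which 7 were measured. Their summed level was 16.71 to 16.74 in B6.C3H-6T livers and 16.63 to 16.73 in C57BL/6J livers, and 6 of the 7 were higher in B6.C3H-6T livers, with a median difference of 0.03. Alb differed by 0.02 ± 0.06 and Apoa1 by 0.02 ± 0.07, with overlap. Ttr at 0.08 ± 0.06 (adjusted p = 0.663) and Cps1 at 0.26 ± 0.06 (adjusted p = 0.232) did not overlap between strains, and Cps1 was the 1 marker of the list with an unadjusted p under 0.05. As a sign of RNA quality, the Actb control probe sets gave 0.60 ± 0.09 more signal at the 3' than at the 5' end in B6.C3H-6T livers, against 0.60 ± 0.01 in C57BL/6J livers (SD, n = 3 each, two-sided exact permutation p = 1). For Gapdh the gap was 0.17 ± 0.04 in B6.C3H-6T livers, against 0.16 ± 0.02 in C57BL/6J livers (exact permutation p = 0.8).

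Most of the enzymes had a somewhat higher signal in B6.C3H-6T livers, and no single one of them passed the test across all genes. Of the 52 measured enzymes, 48 were higher and 4 were lower in B6.C3H-6T livers (Agxt, Bckdha, Mccc2 and Pccb), where 56.1% of all genes were higher. The median difference was 0.17, the range ran from -0.08 for Agxt to 0.74 for Got1, and the median over all 18194 genes was 0.02. By limma with Benjamini-Hochberg adjustment over all genes, 0 of the 52 had an adjusted p under 0.05, against a background of 0.0715% of all genes called in either direction. The smallest adjusted p among them was 0.190, for Cth. At an unadjusted p under 0.05, 25 of the 52 were higher and 0 were lower, where 6.34% of all genes were higher and 5.79% were lower. The mice of the strains did not overlap for 24 of the 52, all higher in B6.C3H-6T livers, where 10.3% of all genes were higher in this way and 7.49% were lower.

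Dim probe sets were set aside for a further background, the 9097 genes whose mean signal lay above the median of all genes, which held 49 of the 52 enzymes. Among these genes the background tilted the other way, with 5.87% higher and 8.95% lower at an unadjusted p under 0.05, and with a median difference of -0.01. Of the 49 enzymes there, 45 were higher, against 46.6% of those genes, and 25 were higher at an unadjusted p under 0.05. Strains did not overlap for 24 of the 49, against 8.77% of those genes. Markers of Kupffer cells, the resident macrophages of the liver, differed the opposite way. All 8 of them were lower in B6.C3H-6T livers, 7 at an unadjusted p under 0.05 and 0 at an adjusted p under 0.05, with a median difference of -0.27. Their summed level was 12.78 to 13.04 in B6.C3H-6T livers and 13.11 to 13.34 in C57BL/6J livers. The sums of lymphocyte markers did not overlap between strains either, with 5 of 6 markers lower. They were 9.25 to 9.48 in B6.C3H-6T livers and 9.52 to 9.56 in C57BL/6J livers. Ptprc, the brightest of the 6, differed by -0.47 ± 0.11 and was the only one lower at an unadjusted p under 0.05. Cd3e differed by 0.09 ± 0.06, higher without overlap. The sum thus rests largely on Ptprc and does not show that lymphocyte markers were lower as a set. Kidney and pancreas markers, chosen as tissues that a dissection could carry over, were slightly higher. The kidney sum was 8.99 to 9.02 in B6.C3H-6T livers and 8.87 to 8.93 in C57BL/6J livers. Of the 7 kidney markers 6 were higher, and Umod was lower, at means of 4.17 and 4.20. At an unadjusted p under 0.05, 2 were higher, Slc22a6 by 0.23 ± 0.09 and Cdh16 by 0.19 ± 0.07, and 0 were lower. The pancreas sum was 8.38 to 8.40 in B6.C3H-6T livers and 8.22 to 8.34 in C57BL/6J livers (6 of 6 higher, 1 at that p). The kidney and pancreas markers were dim, with means of 4.13 to 7.17 and 4.97 to 6.55. Of all genes 56.1% were higher, and 6.34% were so at that p. Cholangiocyte (6 of 6) and adipocyte (5 of 5) markers were also all higher, and 1 of 4 erythroid markers was. The part of these cell types and tissues in the enzyme differences was not tested, and in whole liver a lower number of cells of a type and less RNA per cell cannot be told apart.

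**Figure D1:**
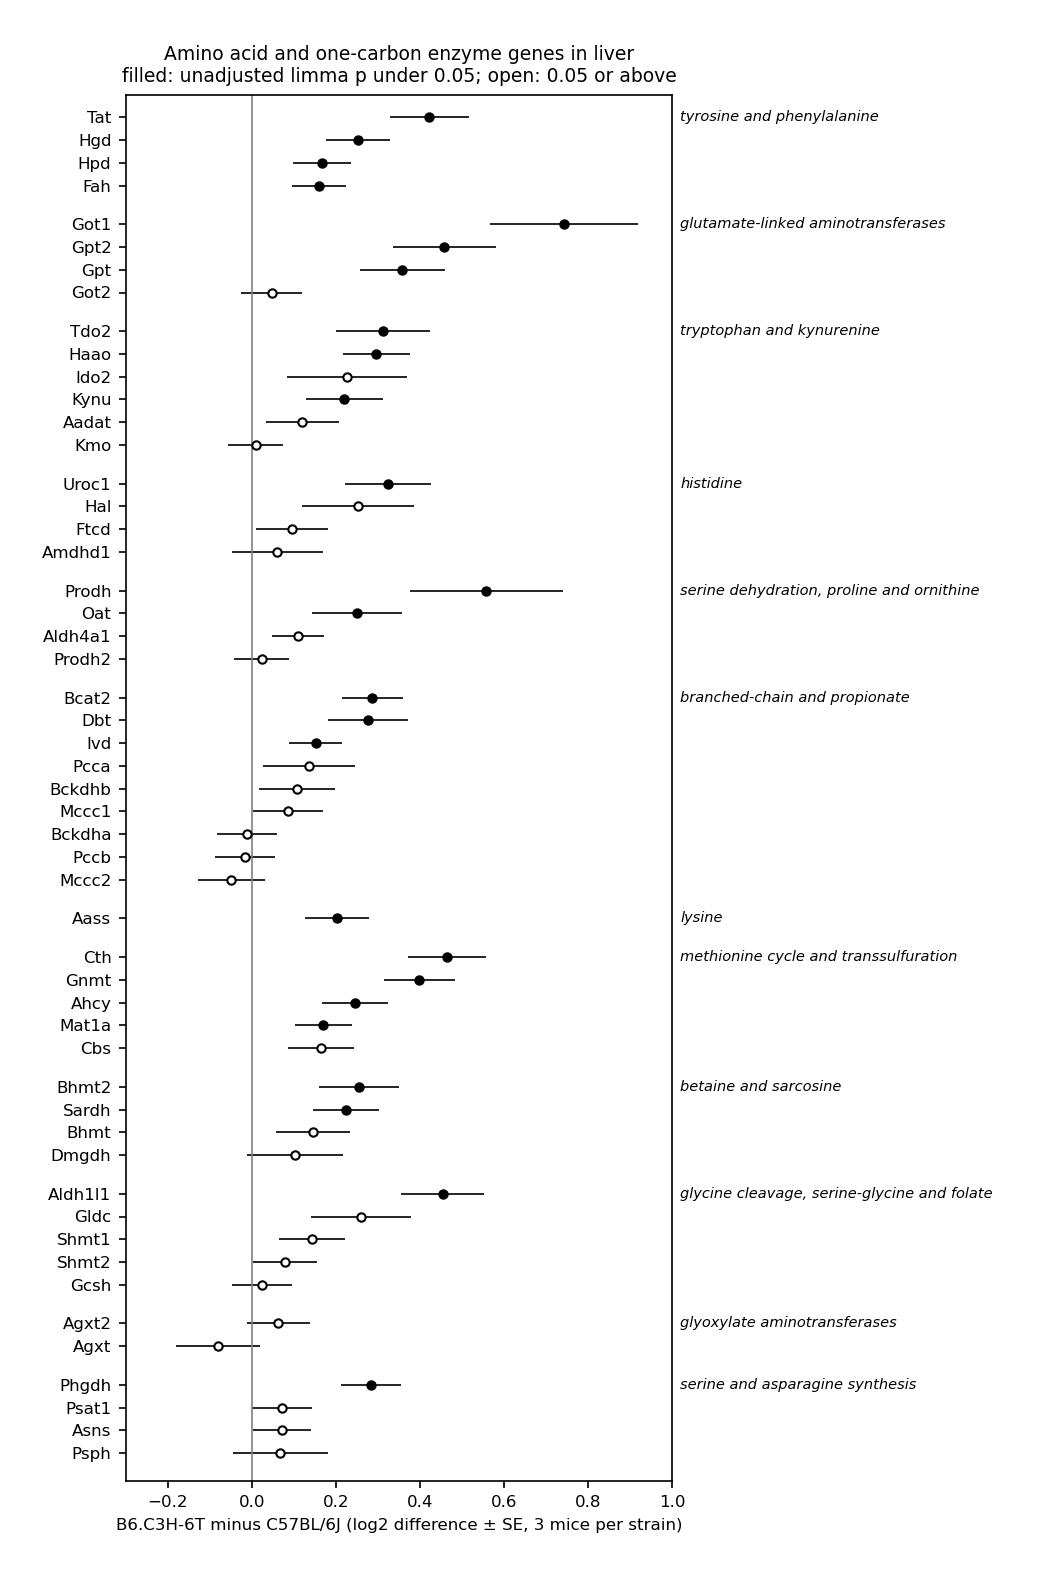
Difference between strains of each of the 52 enzymes (horizontal axis, log2 RMA signal, B6.C3H-6T minus C57BL/6J), grouped by the amino acid or pathway served. Points mark the difference and bars its standard error on either side, which is shorter than a 95% confidence interval. Points are filled where the unadjusted limma p was under 0.05 and open otherwise. Most points lie right of 0, Got1 farthest at 0.74, and those of Agxt, Bckdha, Mccc2 and Pccb lie left of it.

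**Figure D2:**
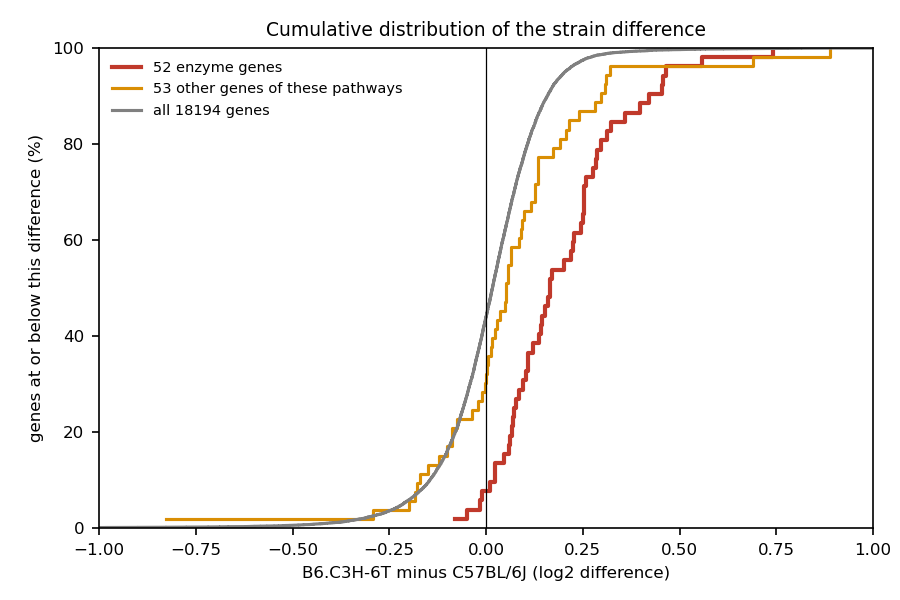
Cumulative share of genes (vertical axis) by difference between strains (horizontal axis, log2 RMA signal, B6.C3H-6T minus C57BL/6J) for the 52 enzymes, the 53 other genes of these pathways that were measured, and all 18194 genes. The curve of the enzymes lies to the right, with a median of 0.17, against 0.05 for the other pathway genes and 0.02 for all genes.

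The promoters of 5 enzymes are shown because these genes span the range of the results. Gnmt, Aldh1l1, Got1 and Tat have some of the smallest p-values or largest differences. Asns is a textbook target of amino acid shortage with hardly any difference. Its signal was dim, with means of 6.55 in B6.C3H-6T livers and 6.48 in C57BL/6J livers. Each promoter is the 250 bases before the gene's start from RefSeq on build GRCm38.p6, read 5' to 3' on the gene's strand. Capitals mark matches on either strand to TGATGNAA (the core of amino acid response elements), TGACGTCA (the cAMP response element), GNACA and TGTNC with 3 bases between them (a glucocorticoid response element), AGGTCA (a nuclear receptor half-site) or CCACCC (a box bound by Krüppel-like factors). Gnmt lies at chr17:46729166-46729415 on the minus strand, Aldh1l1 at chr6:90550543-90550792 on the plus strand, Got1 at chr19:43524606-43524855 on the minus strand, Tat at chr8:109990186-109990435 on the plus strand and Asns at chr6:7693210-7693459 on the minus strand.
Gnmt: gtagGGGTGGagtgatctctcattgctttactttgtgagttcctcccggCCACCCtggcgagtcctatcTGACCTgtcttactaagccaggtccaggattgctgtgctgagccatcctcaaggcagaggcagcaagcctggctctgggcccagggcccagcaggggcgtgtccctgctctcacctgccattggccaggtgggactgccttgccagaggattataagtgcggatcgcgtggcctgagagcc
Aldh1l1: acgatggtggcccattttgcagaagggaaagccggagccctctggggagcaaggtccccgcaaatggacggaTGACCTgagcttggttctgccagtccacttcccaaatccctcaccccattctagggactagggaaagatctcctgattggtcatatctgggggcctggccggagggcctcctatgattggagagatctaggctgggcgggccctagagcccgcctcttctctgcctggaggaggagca
Got1: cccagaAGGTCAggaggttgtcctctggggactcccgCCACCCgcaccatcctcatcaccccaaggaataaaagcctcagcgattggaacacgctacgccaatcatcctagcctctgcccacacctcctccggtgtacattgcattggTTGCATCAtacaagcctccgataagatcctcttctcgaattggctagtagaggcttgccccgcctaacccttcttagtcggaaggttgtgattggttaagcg
Tat: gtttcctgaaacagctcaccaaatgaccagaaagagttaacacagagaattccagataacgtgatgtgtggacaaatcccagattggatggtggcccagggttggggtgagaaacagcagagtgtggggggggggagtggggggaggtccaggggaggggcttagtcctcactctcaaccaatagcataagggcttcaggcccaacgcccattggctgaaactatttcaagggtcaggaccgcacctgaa
Asns: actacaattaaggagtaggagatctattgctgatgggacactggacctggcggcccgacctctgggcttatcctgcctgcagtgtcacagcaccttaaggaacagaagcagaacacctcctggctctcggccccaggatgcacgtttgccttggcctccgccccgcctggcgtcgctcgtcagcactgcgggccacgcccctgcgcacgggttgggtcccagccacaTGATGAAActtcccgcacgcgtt
Gnmt holds a match to AGGTCA and 2 to CCACCC, Aldh1l1 holds a match to AGGTCA, and Got1 holds a match each to TGATGNAA, AGGTCA and CCACCC. Tat holds none of the 5 motifs in this window. The match of Asns to TGATGNAA starts 23 bases before the gene's start. A match is a run of letters and not evidence of binding, and no pair of the marked matches overlaps.

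Over 13 motifs searched on both strands in the same 250 bases, 46 of the 52 enzymes had a window, with 51 windows in all. AGGTCA was found in 31.4% of the enzymes' windows and in 14% of all 32851 windows. CCACCC was found in 45.1% of the enzymes' windows and in 28.1% of all. CAAAGTCC, a form of the HNF4 site, was found in 5.88% and 1.2%, the first being only 3 windows of 2 genes, Aadat and Agxt2. TGATGNAA was found in 3.92% and 3.45%. The glucocorticoid response element and TGACGTCA were in 0 of the 51 windows, against 0.387% and 1.55% of all windows. The forkhead forms TGTTTAC and TGTTTGC were in 0 and 3.92% of the enzymes' windows, against 3.17% and 4.3% of all, and the C/EBP forms TTGCNNAA and ATTGCATC in 9.8% and 0, against 9.56% and 0.426%. An HNF1 site (GTTAAT and ATT with 1 base between them) was in 1.96%, which is 1 window, that of Prodh2, against 0.371%. The SP box GGGGCGGGG was in 13.7%, against 10.4%, and the E-box CACGTG in 3.92%, against 6.02%. Mean GC content was 55.5% in the enzymes' windows and 53.2% in all windows, and windows of 1 gene can overlap.

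The strains were separated by every measured enzyme that the list holds for tyrosine and phenylalanine catabolism. All 4 were higher in B6.C3H-6T livers at an unadjusted p under 0.05, with a median difference of 0.21 and with no overlap between strains. Tat, tyrosine aminotransferase, which takes the first step of tyrosine breakdown, had a level of 12.81, 13.17 and 13.00 in B6.C3H-6T livers, against 12.63, 12.50 and 12.59 in C57BL/6J livers. Its lowest B6.C3H-6T mouse lay above its highest C57BL/6J mouse, with a difference of 0.42 ± 0.09 (95% interval 0.21 to 0.63, 1.34-fold, unadjusted p = 0.00148, adjusted p = 0.216). Hgd, homogentisate dioxygenase, had 12.72, 12.90 and 12.72 in B6.C3H-6T livers, against 12.55, 12.44 and 12.60 in C57BL/6J livers, a difference of 0.25 ± 0.08 (adjusted p = 0.297). The other probe set of Hgd differed by 0.08 ± 0.09, with overlap. Fah, fumarylacetoacetase, which ends the pathway, had 12.61, 12.68 and 12.54 in B6.C3H-6T livers, against 12.46, 12.48 and 12.41 in C57BL/6J livers, a difference of 0.16 ± 0.06 (adjusted p = 0.387). Hpd, which makes homogentisate, was higher by 0.17 ± 0.07 (adjusted p = 0.391). Among these 4 the largest difference was thus at the first step of the pathway, and the 3 later enzymes of the list were within 0.16 to 0.25. Gstz1 of the same pathway, outside the list, differed by 0.13 ± 0.07 without overlap (adjusted p = 0.4585).

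Of the 4 aminotransferases that pair pyruvate or oxaloacetate with glutamate, 3 were higher at an unadjusted p under 0.05 without overlap. Got1, the cytosolic aspartate aminotransferase, had a level of 12.41, 12.94 and 12.27 in B6.C3H-6T livers, against 11.78, 11.56 and 12.05 in C57BL/6J livers. This was the largest difference among the enzymes, 0.74 ± 0.18 (0.35 to 1.14, 1.67-fold, adjusted p = 0.223), and the B6.C3H-6T mouse with 12.94 stood above the other 2. Without 1 array at a time the difference of Got1 ran from 0.54 to 0.88. Got2, the mitochondrial enzyme of the same reaction, differed by 0.05 ± 0.07 (-0.12 to 0.21, adjusted p = 0.826), and its strains overlapped. Gpt, the cytosolic alanine aminotransferase, had 12.00, 12.24 and 11.88 in B6.C3H-6T livers, against 11.80, 11.68 and 11.58 in C57BL/6J livers, a difference of 0.36 ± 0.10 (adjusted p = 0.274). Gpt2, its mitochondrial counterpart, had 11.22, 11.70 and 11.33 in B6.C3H-6T livers, against 11.10, 10.90 and 10.88 in C57BL/6J livers, a difference of 0.46 ± 0.12 (0.18 to 0.73, adjusted p = 0.263). For alanine both enzymes were higher without overlap, and for aspartate the cytosolic one was.

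**Figure D3:**
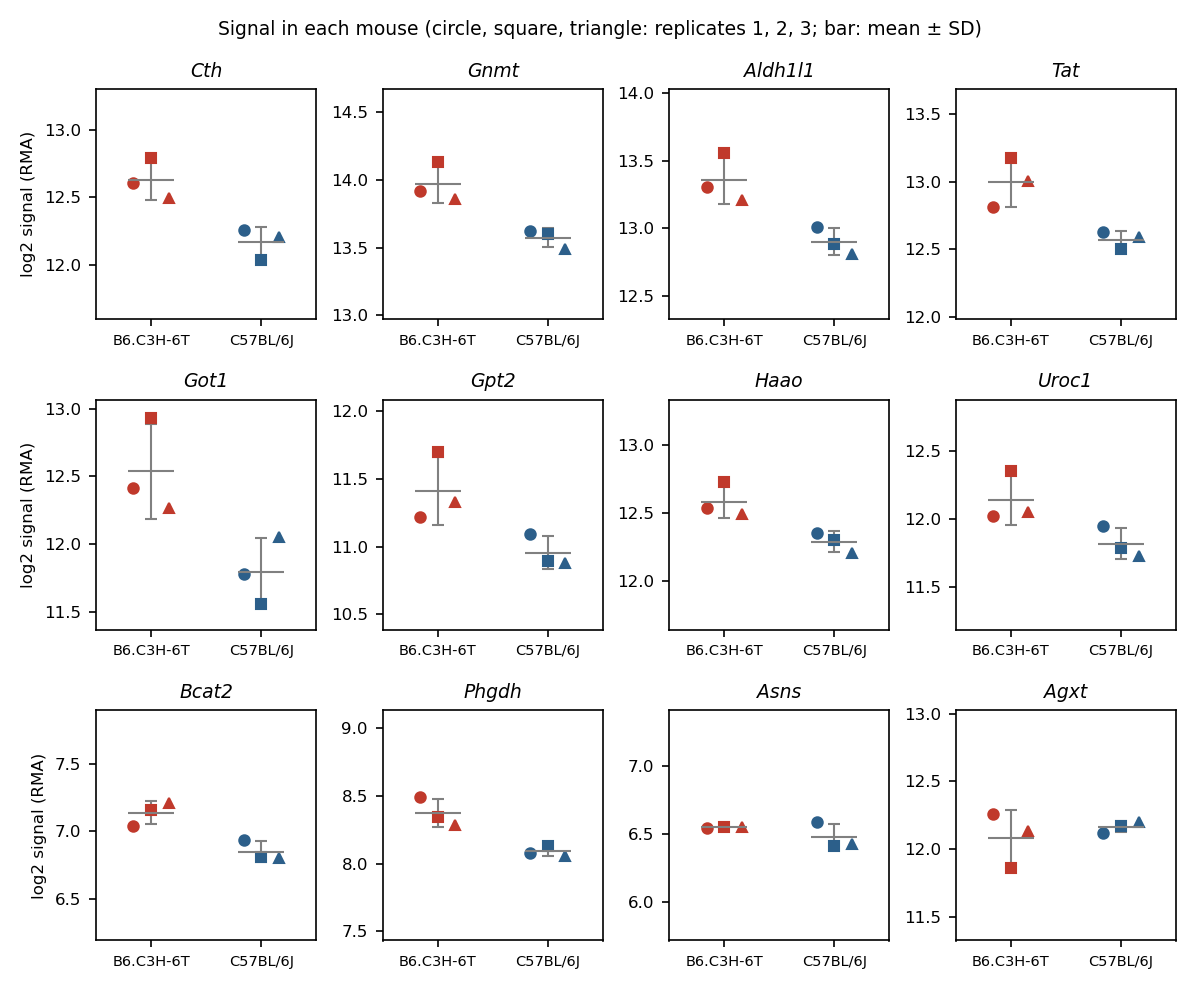
Level of selected enzymes in each mouse (vertical axis, log2 RMA signal), with B6.C3H-6T left of C57BL/6J, a point per mouse and a line at the mean of 3 mice. Tat, Got1, Gnmt, Cth and Aldh1l1 have all B6.C3H-6T points above all C57BL/6J points, and Agxt and Asns do not.

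In tryptophan breakdown all 6 measured enzymes of the list were higher, 3 of them at an unadjusted p under 0.05, with a median difference of 0.22. Of 5 other genes of this pathway, outside the list, 3 were higher and 2 were lower. The lower ones were Kyat1 at -0.17 ± 0.10 and Kyat3 at -0.09 ± 0.08, both with overlap. Tdo2, tryptophan dioxygenase, the liver enzyme that opens the pathway, had 12.99, 13.34 and 12.95 in B6.C3H-6T livers, against 12.93, 12.76 and 12.66 in C57BL/6J livers. The strains just failed to overlap, with the highest C57BL/6J mouse close under the lowest B6.C3H-6T mouse, and the difference was 0.31 ± 0.11 (adjusted p = 0.349), or 0.19 without B6.C3H-6T replicate 2. Haao, which oxidises 3-hydroxyanthranilate on the way to quinolinate, had 12.54, 12.73 and 12.49 in B6.C3H-6T livers, against 12.36, 12.30 and 12.21 in C57BL/6J livers, a difference of 0.30 ± 0.08 (adjusted p = 0.264). Kynu, kynureninase, had 10.53, 10.86 and 10.59 in B6.C3H-6T livers, against 10.44, 10.39 and 10.48 in C57BL/6J livers, a difference of 0.22 ± 0.09 (adjusted p = 0.391), which was 0.12 without B6.C3H-6T replicate 2. Kmo, the hydroxylase that acts on kynurenine, differed by 0.01 ± 0.07 (-0.14 to 0.16, adjusted p = 0.968). Ido2 and Aadat differed by 0.23 ± 0.14 and 0.12 ± 0.09, with overlapping strains for both. Within the list the differences of the pathway were thus uneven, near 0 at Kmo and from 0.22 to 0.31 at the 3 enzymes whose strains separated.

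All 4 histidine enzymes were higher, with 1 at an unadjusted p under 0.05. Uroc1, urocanase, had 12.02, 12.36 and 12.05 in B6.C3H-6T livers, against 11.94, 11.79 and 11.73 in C57BL/6J livers, a difference of 0.32 ± 0.10 (adjusted p = 0.303), without overlap. Its other probe set differed by 0.24 ± 0.12 with overlap (unadjusted p = 0.088), so the count of 1 rests on the brighter probe set. Hal, histidine ammonia-lyase, which starts the pathway, had 11.92, 11.95 and 11.63 in B6.C3H-6T livers, against 11.88, 11.46 and 11.41 in C57BL/6J livers, a difference of 0.25 ± 0.13 (-0.05 to 0.56, adjusted p = 0.486). The strains overlapped for Hal, whose C57BL/6J replicate 1 was close to the B6.C3H-6T mice, and the difference was 0.40 without that mouse. Amdhd1 and Ftcd, which take the later steps, differed by 0.06 ± 0.11 and 0.09 ± 0.09.

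For proline and ornithine, all 4 measured enzymes were higher and 2 were so at an unadjusted p under 0.05. Prodh, proline dehydrogenase of the mitochondrion, had 10.93, 11.72 and 11.30 in B6.C3H-6T livers, against 10.99, 10.65 and 10.63 in C57BL/6J livers. The difference was 0.56 ± 0.18 (0.15 to 0.97, 1.47-fold, adjusted p = 0.316), but B6.C3H-6T replicate 1 lay below the highest C57BL/6J mouse, and the difference was 0.35 without B6.C3H-6T replicate 2. Prodh had the widest spread of any of the 52 enzymes within B6.C3H-6T livers, with an SD of 0.40. Oat, ornithine aminotransferase, had 12.98, 12.98 and 12.84 in B6.C3H-6T livers, against 12.45, 12.88 and 12.73 in C57BL/6J livers, a difference of 0.25 ± 0.11 (adjusted p = 0.399), with 1 C57BL/6J mouse above 1 B6.C3H-6T mouse, and 0.13 without C57BL/6J replicate 1. Aldh4a1, which completes proline oxidation, differed by 0.11 ± 0.06 (adjusted p = 0.520). It was the only enzyme of this group whose strains did not overlap. Prodh2, the hydroxyproline dehydrogenase, differed by 0.02 ± 0.06 (adjusted p = 0.913).

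The branched-chain amino acid and propionate enzymes were the most mixed large group. Of 9, 6 were higher and 3 were lower, 3 were higher at an unadjusted p under 0.05, and the median difference was 0.11. Bcat2, the branched-chain aminotransferase that liver expresses weakly, had 7.04, 7.16 and 7.21 in B6.C3H-6T livers, against 6.94, 6.81 and 6.80 in C57BL/6J livers, a difference of 0.29 ± 0.07 (adjusted p = 0.249), without overlap. Dbt, the transacylase core of the branched-chain keto acid dehydrogenase, had 9.39, 9.73 and 9.47 in B6.C3H-6T livers, against 9.33, 9.23 and 9.19 in C57BL/6J livers, a difference of 0.28 ± 0.09 (adjusted p = 0.334), which was 0.17 without B6.C3H-6T replicate 2. Ivd, isovaleryl-CoA dehydrogenase of leucine breakdown, had 10.58, 10.53 and 10.48 in B6.C3H-6T livers, against 10.42, 10.35 and 10.36 in C57BL/6J livers, a difference of 0.15 ± 0.06 (adjusted p = 0.389). Bckdha and Bckdhb, the other subunits of the branched-chain keto acid dehydrogenase in the list, did not separate the strains. Bckdha differed by -0.01 ± 0.07 (adjusted p = 0.965) and Bckdhb by 0.11 ± 0.09 (-0.10 to 0.31, adjusted p = 0.667). Mccc1, Mccc2, Pcca and Pccb, subunits of biotin-dependent carboxylases, differed by 0.09, -0.05, 0.14 and -0.02, each with a 95% interval that includes 0. For lysine, Aass, which opens its breakdown, had 11.45, 11.62 and 11.43 in B6.C3H-6T livers, against 11.39, 11.29 and 11.23 in C57BL/6J livers, a difference of 0.20 ± 0.08 (adjusted p = 0.361).

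The methionine cycle and transsulfuration held the enzyme with the smallest p of the 52. All 5 enzymes of the list were higher, 4 at an unadjusted p under 0.05, with a median difference of 0.25. Of 12 other genes of these pathways, outside the list, 8 were higher and 3 were lower. Cth, cystathionine gamma-lyase, which releases cysteine at the end of transsulfuration, had 12.60, 12.79 and 12.50 in B6.C3H-6T livers, against 12.25, 12.04 and 12.21 in C57BL/6J livers, a difference of 0.46 ± 0.09 (0.25 to 0.67, 1.38-fold, unadjusted p = 0.00073, adjusted p = 0.190). All B6.C3H-6T mice lay above all C57BL/6J mice, and the gap between them was near the range within each strain. Gnmt, glycine N-methyltransferase, which consumes excess S-adenosylmethionine, had 13.92, 14.13 and 13.86 in B6.C3H-6T livers, against 13.62, 13.60 and 13.49 in C57BL/6J livers, a difference of 0.40 ± 0.08 (0.21 to 0.59, 1.32-fold, unadjusted p = 0.00113, adjusted p = 0.203). Mat1a, the liver enzyme that makes S-adenosylmethionine, had 13.43, 13.58 and 13.47 in B6.C3H-6T livers, against 13.38, 13.29 and 13.31 in C57BL/6J livers, a difference of 0.17 ± 0.07 (adjusted p = 0.383). Ahcy, which splits S-adenosylhomocysteine, had 13.62, 13.76 and 13.53 in B6.C3H-6T livers, against 13.40, 13.46 and 13.31 in C57BL/6J livers, a difference of 0.25 ± 0.08 (adjusted p = 0.309). Cbs, the first enzyme of transsulfuration, differed by 0.16 ± 0.08 (adjusted p = 0.441), with overlapping strains.

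In the betaine and sarcosine branch, which feeds methyl groups back to homocysteine, all 4 enzymes of the list were higher and 2 were so at an unadjusted p under 0.05. Chdh of the same branch, outside the list, differed by -0.18 ± 0.10 with overlap (adjusted p = 0.510). Bhmt, betaine-homocysteine methyltransferase, had 13.58, 13.90 and 13.70 in B6.C3H-6T livers, against 13.53, 13.63 and 13.59 in C57BL/6J livers, a difference of 0.15 ± 0.09 (-0.05 to 0.34, adjusted p = 0.539) with overlapping strains, and 0.06 to 0.22 without 1 array at a time. Bhmt2, its relative that uses S-methylmethionine, had 11.24, 11.58 and 11.27 in B6.C3H-6T livers, against 11.09, 11.18 and 11.06 in C57BL/6J livers, a difference of 0.25 ± 0.10 (adjusted p = 0.360) without overlap, which was 0.15 without B6.C3H-6T replicate 2 and 0.17 ± 0.09 on its other probe set (unadjusted p = 0.0985). Sardh, sarcosine dehydrogenase, had 12.84, 12.80 and 12.61 in B6.C3H-6T livers, against 12.58, 12.53 and 12.46 in C57BL/6J livers, a difference of 0.22 ± 0.08 (adjusted p = 0.335). Dmgdh, which makes sarcosine from dimethylglycine, differed by 0.10 ± 0.11 (adjusted p = 0.750), and its sign changed when B6.C3H-6T replicate 2 was left out.

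Among the glycine and folate enzymes, 1 of 5 was higher at an unadjusted p under 0.05. It was Aldh1l1, the formyltetrahydrofolate dehydrogenase that returns folate carbon to carbon dioxide, with 13.30, 13.55 and 13.21 in B6.C3H-6T livers, against 13.01, 12.88 and 12.81 in C57BL/6J livers, a difference of 0.45 ± 0.10 (0.23 to 0.67, 1.37-fold, unadjusted p = 0.00123, adjusted p = 0.203). Gldc, the glycine decarboxylase, had 10.65, 11.00 and 10.52 in B6.C3H-6T livers, against 10.56, 10.47 and 10.36 in C57BL/6J livers, a difference of 0.26 ± 0.12 (adjusted p = 0.426). The strains overlapped for Gldc, whose difference was 0.12 without B6.C3H-6T replicate 2. Shmt1, the cytosolic enzyme that exchanges serine and glycine, differed by 0.14 ± 0.08 (adjusted p = 0.504), and Gcsh, the lipoyl carrier of glycine cleavage, by 0.02 ± 0.07. Shmt2, the mitochondrial counterpart of Shmt1, had 11.35, 11.33 and 11.29 in B6.C3H-6T livers, against 11.26, 11.36 and 11.11 in C57BL/6J livers, a difference of 0.08 ± 0.08 (-0.09 to 0.25, adjusted p = 0.711). Of the enzymes, Aldh1l1, Uroc1, Aass and Asns lie on chromosome 6, where the strains can differ in sequence, and a difference under the probes can alter their signal, which was not tested.

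Both aminotransferases of glyoxylate showed no difference beyond the spread between mice. Agxt, which clears glyoxylate, had 12.26, 11.86 and 12.13 in B6.C3H-6T livers, against 12.12, 12.17 and 12.20 in C57BL/6J livers, a difference of -0.08 ± 0.10 (-0.31 to 0.14, adjusted p = 0.777). Agxt2, its mitochondrial relative, differed by 0.06 ± 0.07 (adjusted p = 0.770). Of the 4 enzymes that make serine or asparagine, Phgdh, which starts serine synthesis, had 8.49, 8.34 and 8.29 in B6.C3H-6T livers, against 8.08, 8.13 and 8.06 in C57BL/6J livers, a difference of 0.28 ± 0.07 (adjusted p = 0.249), without overlap. Asns, asparagine synthetase, had 6.55, 6.55 and 6.55 in B6.C3H-6T livers, against 6.59, 6.42 and 6.43 in C57BL/6J livers, a difference of 0.07 ± 0.07 (-0.09 to 0.23, adjusted p = 0.712), and the 3 B6.C3H-6T mice were alike to 2 decimals. Psat1 and Psph, the next enzymes of serine synthesis, differed by 0.07 ± 0.07 and 0.07 ± 0.11. Means in B6.C3H-6T and C57BL/6J livers were 4.40 and 4.33 for Psat1, and 6.30 and 6.23 for Psph. With Asns, these are the enzymes whose signal did not lie above the median of all genes. A dim signal can hide a difference, so their small differences do not show that these genes were unchanged.

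Where 2 genes encode related enzymes, the log2 ratio of the pair was compared per mouse, relative to the C57BL/6J mean, for 7 pairs chosen after the values were seen. With 3 mice against 3 the smallest exact permutation p is 0.1. Got1 over Got2 was 0.51, 1.05 and 0.53 in B6.C3H-6T livers, against 0.00, -0.31 and 0.31 in C57BL/6J livers, means of 0.70 ± 0.30 and 0.00 ± 0.31 (SD, n = 3 each, two-sided exact permutation p = 0.1, adjusted over 7 pairs p = 0.233). This ratio did not overlap between the mice of the strains. Since 0.1 is the smallest p that this test can give, no pair could have passed 0.05. Bhmt2 over Bhmt had a mean of 0.11 ± 0.05 in B6.C3H-6T livers, against 0.00 ± 0.05 in C57BL/6J livers (n = 3 each, exact p = 0.1, adjusted p = 0.233), and Shmt1 over Shmt2 one of 0.06 ± 0.04, against 0.00 ± 0.03 (exact p = 0.1, adjusted p = 0.233). The other 4 pairs overlapped between strains. Prodh over Prodh2 averaged 0.53 ± 0.40 in B6.C3H-6T livers, against 0.00 ± 0.26 in C57BL/6J livers (exact p = 0.2, adjusted p = 0.35), Gpt2 over Gpt 0.10 ± 0.14, against 0.00 ± 0.05 (exact p = 0.4), Tdo2 over Ido2 0.09 ± 0.29, against 0.00 ± 0.07 (exact p = 0.6), and Agxt over Agxt2 -0.14 ± 0.28, against 0.00 ± 0.12 (exact p = 0.6).

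**Figure D4:**
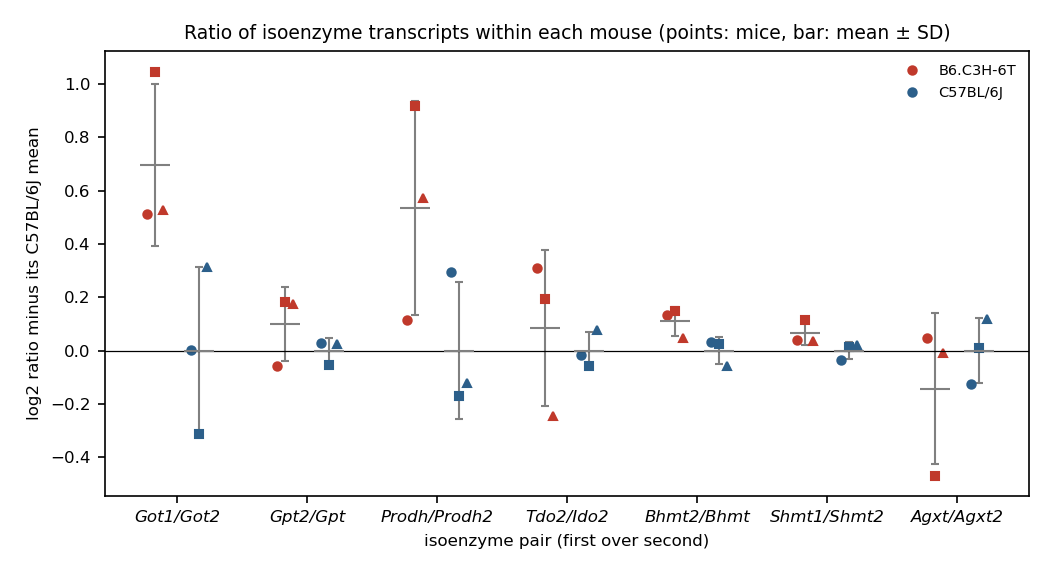
Log2 ratio of 7 enzyme pairs in each mouse relative to the C57BL/6J mean of the pair (vertical axis), B6.C3H-6T left of C57BL/6J, a point per mouse and a line at the mean. The strains do not overlap for Got1 over Got2, Bhmt2 over Bhmt and Shmt1 over Shmt2.

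Mice of the same strain also differed over many of the enzymes at a time. The median over the 52 of the value minus the C57BL/6J mean was 0.15, 0.27 and 0.09 for B6.C3H-6T replicates 1, 2 and 3, and 0.03, 0.02 and -0.07 for the C57BL/6J replicates. Over all genes these medians stayed between -0.02 and 0.03. B6.C3H-6T replicate 2 had the highest level of its strain for 35 of the 52 (67.3%), against 30.8% of all genes, and B6.C3H-6T replicate 3 had the lowest for 37 (71.2%), against 39.1%. C57BL/6J replicate 3 had the lowest level of its strain for 38 (73.1%), against 42.1% of all genes. The median SD within a strain was 0.12 in B6.C3H-6T livers and 0.08 in C57BL/6J livers over the enzymes, and 0.08 and 0.09 over all genes. The count at an unadjusted p under 0.05, 25 with all arrays, was 13 without B6.C3H-6T replicate 2, where 3.91% of all genes were higher, and 13 with C57BL/6J replicate 3 left out, where the background was 3.55%. It was 22 without B6.C3H-6T replicate 1 (background 4.77%), 26 leaving out B6.C3H-6T replicate 3 (7.45%), 23 when C57BL/6J replicate 1 was left out (5.56%) and 20 when C57BL/6J replicate 2 was (7.1%). With each array centred on its own median it was 19, with a background of 3.82%.

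**Figure D5:**
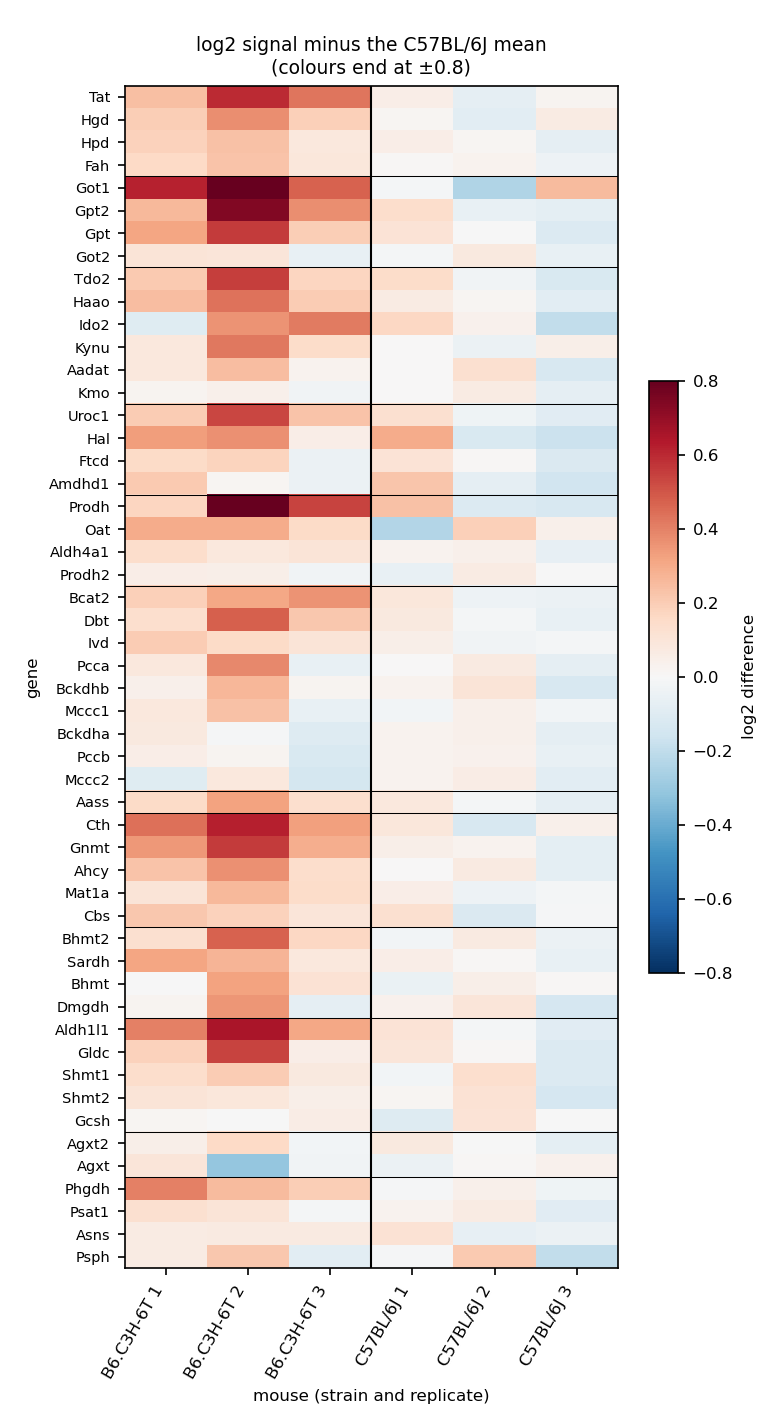
Level of each of the 52 enzymes in each mouse minus the C57BL/6J mean of that enzyme (colour, log2 RMA signal), with B6.C3H-6T mice in the left columns and C57BL/6J mice in the right ones. B6.C3H-6T replicate 2 is the highest of its strain for 35 enzymes and C57BL/6J replicate 3 the lowest of its strain for 38.

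A further probe set was available for 21 of the 52 enzymes, 33 in all. Of these, 28 were higher in B6.C3H-6T livers, 10 at an unadjusted p under 0.05, and 0 were lower at that p. Over all 45037 probe sets 56.5% were higher, 5.74% were higher at that p and 4.82% were lower at it. For the 11 enzymes that had an unadjusted p under 0.05 and a further probe set, 15 of 16 further probe sets were higher and 8 were so at that p. All 3 others of Gpt2 and both of Tdo2 were among them, those of Tdo2 at 0.43 ± 0.15 and 0.58 ± 0.17, and the other of Aldh1l1 differed by 0.93 ± 0.29. The others of Phgdh differed by at most 0.12, that of Hgd by 0.08 and that of Kynu by -0.10, so these 3 differences rest on the brightest probe set. Gpt is read by a probe set whose name marks it as shared between transcripts, and its other probe set differed by 0.14 ± 0.07. Shmt1 went the other way: its brightest probe set did not pass an unadjusted p under 0.05, and 2 of its 3 others, at 0.21 ± 0.07 and 0.24 ± 0.07, did, without overlap.

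A list of 65 other genes of these pathways, of which 53 were measured, was read in the same way. In B6.C3H-6T livers 36 were higher and 16 were lower, 9 higher and 4 lower at an unadjusted p under 0.05, 0 at an adjusted p under 0.05, with a median difference of 0.05. The shares over all genes were 56.1% higher, and 6.34% higher and 5.79% lower at that unadjusted p. Afmid, which follows Tdo2 in tryptophan breakdown, had 11.07, 11.10 and 11.04 in B6.C3H-6T livers, against 10.82, 10.76 and 10.74 in C57BL/6J livers, a difference of 0.30 ± 0.06 (adjusted p = 0.196). Qprt, which makes nicotinate mononucleotide from quinolinate, was higher by 0.31 ± 0.07, Pipox of pipecolate and sarcosine oxidation by 0.32 ± 0.07, Mthfd1 of folate interconversion by 0.31 ± 0.08, Qdpr of tetrahydrobiopterin recycling by 0.28 ± 0.07 and Pcbd1 of the same recycling by 0.19 ± 0.07. None of these 6 overlapped between strains, with adjusted p-values of 0.196 to 0.335. Nnmt, which methylates nicotinamide with S-adenosylmethionine, had 10.74, 11.82 and 10.87 in B6.C3H-6T livers, against 10.23, 10.27 and 10.26 in C57BL/6J livers, a difference of 0.89 ± 0.23 (1.85-fold, adjusted p = 0.259). Tyms, thymidylate synthase, differed by -0.29 ± 0.08, lower without overlap, and Csad of taurine synthesis by -0.83 ± 0.29, lower with overlap. The probe set of Tyms was dim, with means of 5.02 in B6.C3H-6T livers and 5.31 in C57BL/6J livers. Its difference was much smaller in the mean of its 4 probe sets, given in the last section. Ethe1, which oxidises persulfide from cysteine, was higher by 0.69 ± 0.22, also with overlap. Without B6.C3H-6T replicate 2 the differences were 0.55 for Nnmt, -0.52 for Csad and 0.45 for Ethe1. Both genes of glyoxylate handling measured in this list were lower at an unadjusted p under 0.05, with differences of -0.20 for Grhpr and -0.18 for Hao1.

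Of 14 factors known to regulate these enzymes, 13 were measured, 11 of them higher, 5 at an unadjusted p under 0.05 and 0 at an adjusted p under 0.05, where 56.1% of all genes were higher and 6.34% were so at that unadjusted p. Klf15, a Krüppel-like factor that in mouse liver is known to activate amino acid breakdown in fasting, had 10.70, 11.00 and 10.81 in B6.C3H-6T livers, against 10.31, 10.38 and 10.29 in C57BL/6J livers, a difference of 0.51 ± 0.08 (adjusted p = 0.119) without overlap, and its gene is on chromosome 6. Foxo3, a forkhead factor restrained by insulin and IGF-1 signalling, differed by 0.36 ± 0.09 (adjusted p = 0.230), Ppargc1a, a coactivator of fasting metabolism, by 0.23 ± 0.09 (0.13 without C57BL/6J replicate 2) and Cebpb, a C/EBP factor, by 0.28 ± 0.11 (0.16 without B6.C3H-6T replicate 2). The lower 2 were Nr3c1, the glucocorticoid receptor, at -0.03 ± 0.09 (adjusted p = 0.928), and Gcgr, the glucagon receptor, at -0.06 ± 0.07 (adjusted p = 0.734), both with overlap. Atf4, the factor of the amino acid response that acts on Asns, differed by 0.09 ± 0.09 (adjusted p = 0.742). Cps1, given above among the hepatocyte markers, is the first enzyme of the urea cycle, which takes up the released nitrogen.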

How the data were processed

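Liver RNA of 6 mice was measured on Affymetrix arrays. The authors deposited log2 values for each probe set on each array. The submitters' processing notes name RMA and affy. Their versions and any later step are not given in the sources used here. RNA was primed from the poly(A) tail per the labels' protocols, so probe sets read mainly the 3' part of a transcript. No further normalisation was applied. Of 45101 probe sets, 64 controls were left out. The annotation paired 34945 of the other 45037 with a single gene, 932 with several and 9160 with none.

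The comparison of strains used lmFit and eBayes of limma (version 3.58.1, under R 4.3.3) without covariates on all 45037 probe sets, with Benjamini-Hochberg adjustment over 18194 genes, each read by its probe set of highest mean. The fit was tested on simulated data. Depth has no meaning for arrays, and their number limits the precision. Enzymes, lists and tests were chosen with earlier results of these data known. The genes named with values were 14 fixed ones, up to 3 per pathway group by smallest p, up to 10 other pathway genes and up to 4 regulators, and further ones stand where a count is explained. Lists were described by counts without a test. Marker lists for 12 cell types or tissues besides the regulators were read the same way. Sums of levels in periportal, pericentral, sinusoidal endothelial, stellate, cholangiocyte and erythroid markers overlapped between strains. Those of adipocyte markers overlapped too. Alternatives were other probe set rules, array centring, a filter on dim genes, other variance models and leaving out each array. All 6 value columns were used.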

Additional observations from a re-analysis of the deposited data

How the results depend on the processing

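Over 13 alternatives 0 of the 52 enzymes passed an adjusted p under 0.05, and the lowest adjusted p was 0.125. The number higher at an unadjusted p under 0.05, 25 as reported, was 18 to 26 under the other settings (19 with arrays centred on their median, where 3.82% of all genes were higher) and 13 to 26 when 1 array was left out. The number whose strains did not overlap was 24 as reported, where 10.3% of all genes were higher in this way. It was 24 to 34 with 1 array left out, but fewer mice separate more easily. The share over all genes was not counted for those settings, so a rise there is no sign of a firmer result. The median difference was 0.13 to 0.20. The direction held in all alternatives for 43 of the 52. With arrays centred, Gcsh was -0.0023, Kmo -0.0164 and Prodh2 -0.0027. With 1 array left out, the differences that changed sign ran from -0.0166 to 0.17 for Amdhd1, -0.17 to 0.0325 for Agxt, -0.0245 to 0.19 for Dmgdh, -0.0268 to 0.0432 for Kmo, -0.0302 to 0.17 for Psph, -0.0549 to 0.0349 for Bckdha, -0.05 to 0.0374 for Pccb, -0.0287 to 0.0771 for Gcsh and -0.0057 to 0.0542 for Prodh2. The mean of all probe sets gave 0.69 for Aldh1l1, 0.06 for Kynu, 0.14 for Phgdh and 0.17 for Hgd, and leaving out probe sets that may match related sequences gave 0.14 for Gpt, 0.17 for Bhmt2, 0.24 for Uroc1 and 0.10 for Cbs, with Gpt, Bhmt2 and Uroc1 no longer at an unadjusted p under 0.05. Among genes outside the 52, Tyms was -0.07 and Mthfd1 0.19 with the mean of all probe sets, Atf4 ran from -0.0178 to 0.1534 with 1 array left out, and Nr3c1 from -0.1193 to 0.0314, and 0.0119 with the mean of all probe sets. The causes were not tested. No paired analysis was possible because the replicate numbers follow accession order, and each mouse has a pedigree number of its own in the titles that the sources used here do not tie to a litter or to a mouse of the other strain. With 3 mice per strain, differences of the size seen for most enzymes lie near the spread between mice.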
